A study of Mus musculus with 12 samples.

Results

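The 10 genes that carry the identity and the pigment of melanocytes and are named below were followed in B16F10 cells, a pigmented mouse melanoma line. The choice names known genes of the pathway and sets no threshold on a measured value, though it was made with earlier results of these data known. They are the transcription factors Mitf and Sox10, the melanin enzymes Tyr, Tyrp1 and Dct, the melanosome proteins Pmel and Mlana, the melanosome transporters Oca2 and Slc45a2, and the receptor Mc1r. These are 10 of the 24421 genes in the count files, and all 10 were among the 11638 genes that passed the filter on low counts and were tested. Of the 10, 5 differed between the combination treatment and control, from 0.779 of the control level in Pmel to 1.23-fold in Oca2, where 31.6% of all tested genes differed, and the 10 genes varied more between replicate numbers than between treatments.

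The 4 groups with 3 replicates each were compared, all of the same cell line grown without a host animal and all harvested 72 h after the first treatment began. Control cells received the vehicle DMSO (0.025% by the labels, while the methods of the study give a lower percentage for the wells of the dose tests). DAC cells received 25 nM 5-aza-2′-deoxycytidine (decitabine), a cytidine analog that lowers DNA methylation, for 72 h. SFN cells were left for a day and then received sulforaphane, an isothiocyanate of broccoli and its relatives, for 48 h, and DAC+SFN cells received DAC for 72 h with SFN added for the last 48 h. By the methods of the study, DAC was dissolved in DMSO and SFN in water. Any comparison that uses the SFN group may thus also hold a difference in DMSO. The labels give the SFN dose as 5 nM in the single treatment and 5 µM in the combination treatment. The methods of the study give 5 µM for both. Any comparison of DAC+SFN with SFN, and the interaction, may thus also hold a difference in dose. The same holds for the effect of DAC averaged over the absence and presence of SFN. By the labels, the effect of SFN averaged over the absence and presence of DAC pools the 5 nM and 5 µM doses. The comparisons ask how each drug alone and both drugs together change gene expression in these cells, and here they are read for the pigment genes.

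In melanocytes, melanin is made from tyrosine inside the melanosome, an organelle related to the lysosome. Tyrosinase, the product of Tyr, starts the synthesis, and its relatives TYRP1 and DCT act on later intermediates. MC1R is the cell surface receptor for melanocyte-stimulating hormone and raises cyclic AMP, which through CREB increases transcription of Mitf. MITF and SOX10 bind and activate many pigment genes, MITF at E-box elements that include the M-box.

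The start regions of the pigment genes are printed here because they hold the letters that MITF, SOX10 and CREB are known to recognise. RefSeq promoter windows on GRCm38.p6, the mm10 build of the study, were found for 6 of the 10 genes, with 3 windows for Mitf and 1 each for Tyr, Tyrp1, Dct, Oca2 and Mc1r. No entry was matched for Sox10, Pmel, Mlana and Slc45a2. Each sequence below is the 250 bases upstream of the annotated start, read 5′ to 3′ on the strand of the gene. Capitals mark the M-box core TCATGTG, or its reverse complement, in Tyr, Tyrp1, Dct and Mc1r, the E-box CATGTG read on the other strand in Oca2 and Mc1r, and the cyclic AMP response element TGACGTCA in the Mitf window.
Tyr, chr7:87493513-87493762, minus strand: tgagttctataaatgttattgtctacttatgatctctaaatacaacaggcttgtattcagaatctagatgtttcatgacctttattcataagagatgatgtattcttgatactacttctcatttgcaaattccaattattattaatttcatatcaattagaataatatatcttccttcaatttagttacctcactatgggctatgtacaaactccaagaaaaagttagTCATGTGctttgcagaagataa
Tyrp1, chr4:80833963-80834212, plus strand: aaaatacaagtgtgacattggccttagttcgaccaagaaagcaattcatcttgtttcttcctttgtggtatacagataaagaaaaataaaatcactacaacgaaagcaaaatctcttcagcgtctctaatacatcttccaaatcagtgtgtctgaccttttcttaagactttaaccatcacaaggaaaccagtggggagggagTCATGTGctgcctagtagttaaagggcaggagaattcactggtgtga
Dct, chr14:118052247-118052496, minus strand: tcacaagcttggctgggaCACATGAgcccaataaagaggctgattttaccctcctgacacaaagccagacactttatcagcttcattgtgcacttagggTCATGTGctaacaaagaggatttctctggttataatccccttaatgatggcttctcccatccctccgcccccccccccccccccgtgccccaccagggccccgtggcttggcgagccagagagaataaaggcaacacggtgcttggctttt
Oca2, chr7:56239509-56239758, plus strand: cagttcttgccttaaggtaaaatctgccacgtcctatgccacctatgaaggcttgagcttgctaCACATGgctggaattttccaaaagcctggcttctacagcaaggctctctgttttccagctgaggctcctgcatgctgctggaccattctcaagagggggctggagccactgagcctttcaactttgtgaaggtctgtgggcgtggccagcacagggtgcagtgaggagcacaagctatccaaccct
Mc1r, chr8:123406832-123407081, plus strand: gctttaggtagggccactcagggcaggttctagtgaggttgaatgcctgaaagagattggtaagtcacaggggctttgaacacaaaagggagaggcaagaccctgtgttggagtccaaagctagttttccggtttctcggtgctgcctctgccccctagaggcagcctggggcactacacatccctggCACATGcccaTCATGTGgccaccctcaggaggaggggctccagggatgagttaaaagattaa
Mitf, chr6:97991533-97991782, plus strand: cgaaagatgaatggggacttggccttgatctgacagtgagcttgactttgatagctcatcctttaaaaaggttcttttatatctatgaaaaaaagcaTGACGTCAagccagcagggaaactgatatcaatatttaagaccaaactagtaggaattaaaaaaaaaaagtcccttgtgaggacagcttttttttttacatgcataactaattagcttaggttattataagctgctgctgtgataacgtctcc

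The 6 motifs were searched on both strands. The M-box core TCATGTG, which contains the E-box CATGTG, lay in 4 of the 8 windows of these genes and in 3.25% of the 32851 promoter windows of the same length. Its first base was at position -22 in Tyr, -47 in Tyrp1, -52 in Mc1r, and -151 and -232 in Dct, where -1 is the last base before the start. The E-box CATGTG lay in 5 of the 8 windows, Oca2 included, and in 12.3% of all windows. The E-box CACGTG lay in 0 of the 8 windows and in 6.02% of all windows. The cyclic AMP response element TGACGTCA, the site of CREB, lay at -153 in 1 of the Mitf windows and in 1.55% of all windows. The SOX motif ACAAAG lay in the windows of Tyrp1, Dct and Oca2 and in 16.5% of all windows. The antioxidant response element core TGACNNNGC, the site of NRF2, a factor that SFN is known to activate, lay in 1 window, the Mitf window at chr6:97929567-97929816, and in 10.2% of all windows. The windows of Tyr, Oca2, Mc1r, Tyrp1 and Dct held 0, 2, 2, 3 and 5 CpG dinucleotides, the base pair that DNA methylation uses, and those of Mitf held 15, 4 and 3, beside a median of 6 over all windows. A match is a run of letters in the window and was not measured as binding or methylation.

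All 10 genes were present in all 12 libraries, with at least 877 counts each, at total counts of 15880957 to 27291436 per library. The melanocyte markers thus fitted the label of the line, and together the 10 genes held 2.24% to 3.14% of all counts. Of 6 keratinocyte markers, 3 were at 0 in all libraries and none exceeded 2 counts. Of 5 immune cell markers, 4 (Ptprc, Cd3e, Itgam and Csf1r) had at most 3 counts and only Cd68, a lysosomal protein of macrophages, was tested. The summed level of the immune markers was 2.38 to 4.69 CPM in control libraries, against 3.98 to 5.79 after DAC, 6.12 to 8.79 after SFN and 8.58 to 11.1 after both drugs, where CPM is the count scaled to a common library size by TMM. Of 7 fibroblast markers, Dcn and Lum had at most 3 counts, while collagen Col1a1 had 284 to 9514, and the summed level was 31.4 to 343 CPM in control libraries, against 38.1 to 395 after DAC, 34.0 to 268 after SFN and 43.2 to 277 after both drugs. The part of these markers in the results below was not tested. In bulk RNA, fewer cells of a kind and less RNA per cell cannot be told apart.

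The pigment enzymes and the fibril protein of the melanosome stood among the most abundant transcripts. By CPM in control, Tyrp1 ranked 1, Dct 4 and Pmel 7 of 11638 genes, and Mlana, Slc45a2, Tyr, Sox10, Mitf, Mc1r and Oca2 ranked 67, 89, 111, 290, 381, 678 and 4539. Levels between genes were compared per length, as CPM per kilobase of the union of annotated exons (GENCODE M21), which need not be the transcript that the cells use. On this scale, control held 4229 ± 508 (SD, n = 3) for Tyrp1, 2299 ± 215 for Pmel, 1195 ± 130 for Dct, 1025 ± 155 for Mlana, 304 ± 26.7 for Slc45a2, 149 ± 16.1 for Sox10, 111 ± 16.3 for Tyr, 70.9 ± 7.91 for Mc1r, 60.4 ± 9.18 for Mitf and 13.4 ± 2.98 for Oca2. The values of neighbours in this order did not overlap between the 3 control libraries, except those of Dct and Mlana and those of Mc1r and Mitf. Dct was above Mlana in 9 of the 12 libraries, and each other neighbour kept its place in 12 of 12.

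**Figure D1:**
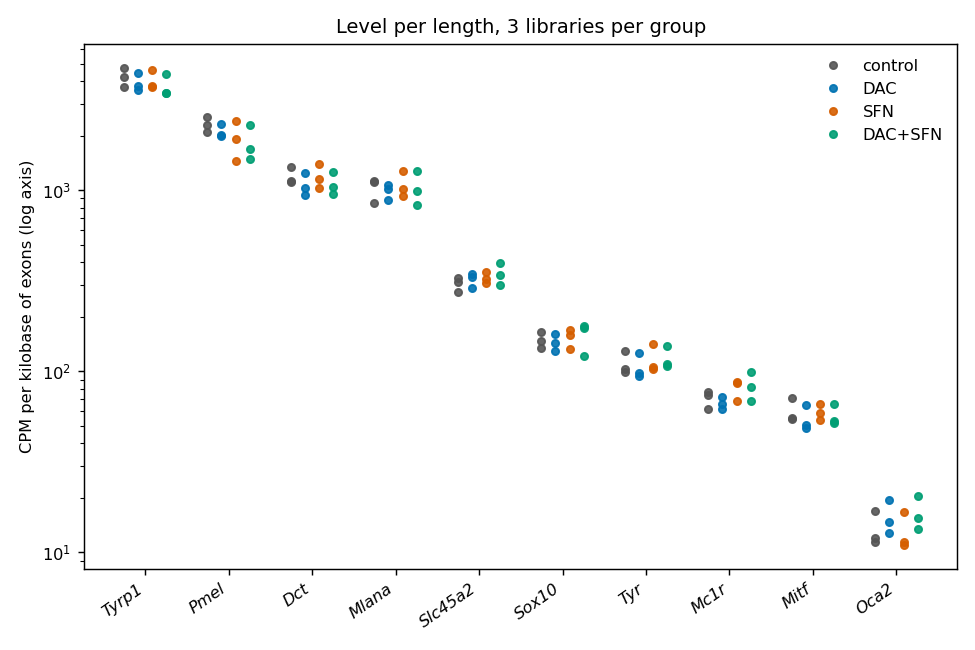
Level of each gene in CPM per kilobase of exons (log axis), with 1 point per library and 3 libraries per group in colour. The genes run from Tyrp1 at 4229 in control to Oca2 at 13.4, and the 4 groups of a gene lie close together beside the differences between genes.

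Mitf (chr6:97807052-98021349, plus strand), the master regulator of the melanocyte lineage, had levels of 439, 344 and 338 CPM in control libraries, against 405, 311 and 301 after DAC, 406, 336 and 363 after SFN and 407, 321 and 331 after both drugs, in the order of replicates 1, 2 and 3. Replicate 1 was the highest in each group and the groups overlapped. No comparison called Mitf. The log2 fold change came to -0.14 for DAC (SE 0.056, adjusted p = 0.389, lower in 3 of 3 replicates), -0.01 with SFN (adjusted p = 0.900) and -0.08 with DAC+SFN (adjusted p = 0.286, 95% interval -0.20 to 0.04). Adjusted p-values here and below are from edgeR's quasi-likelihood test with the replicate number as a block, adjusted by Benjamini-Hochberg over 11638 genes, and a gene was called at an adjusted p under 0.05. Only when the fit held the control and DAC libraries alone did Mitf pass with DAC (adjusted p = 0.0266).

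Sox10 (chr15:79154908-79165240, minus strand), the neural crest factor upstream of Mitf, had levels of 446, 506 and 408 CPM in control libraries, against 396, 489.8 and 439 after DAC, 481, 519 and 404 after SFN and 531, 542 and 369 after both drugs. With the combination it was above control in replicates 1 and 2 and below it in replicate 3. Against control it differed by a log2 fold change of -0.03 with DAC, 0.04 with SFN and 0.07 with DAC+SFN (SE 0.087 each, adjusted p = 0.935, 0.786 and 0.546).

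The melanin enzymes moved little. With DAC alone, the estimates of Tyr, Tyrp1 and Dct were all negative (-0.06, -0.11 and -0.16), each lower in 3 of 3 replicates and not called. With DAC+SFN, the estimate of Tyr was positive and those of Tyrp1 and Dct were negative. Differences between the enzymes were not tested. Tyr (chr7:87424771-87493512, minus strand), the rate-limiting enzyme, had levels of 919.5, 708 and 732 CPM in control libraries, against 899, 667 and 696 after DAC, 1004, 735 and 753 after SFN and 978, 778 and 759 after both drugs. Within each replicate number, both groups with SFN were above both groups without it. Averaged over the absence and presence of DAC, Tyr rose with SFN by 0.12 on the log2 scale (SE 0.035, adjusted p = 0.0226), and it rose in DAC+SFN against DAC by 0.16 (adjusted p = 0.0442), while SFN against control gave 0.07 (adjusted p = 0.349) and DAC+SFN against control 0.09 (adjusted p = 0.167). The averaged call was lost without control replicate 1 (adjusted p = 0.0855), DAC replicate 2 (0.0636), SFN replicate 1 (0.0746), SFN replicate 2 (0.0516) or DAC+SFN replicate 2 (0.0732). The call against DAC was lost without any of the libraries other than control replicate 2, at adjusted p of 0.0571 to 0.173.

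Tyrp1 (chr4:80834123-80851719, plus strand), a melanosomal oxidase, which by CPM uncorrected for length held the most reads of the tested genes in control and per kilobase ranked 3 of 11227, had levels of 13400.1, 11949 and 10526 CPM in control libraries, against 12588, 10649 and 10123 after DAC, 13109, 10454 and 10671 after SFN and 12453, 9688 and 9742 after both drugs. Each DAC+SFN library was below the control library of its number, but the ranges overlapped. Tyrp1 fell by 0.17 on the log2 scale with DAC+SFN (SE 0.063, adjusted p = 0.0478). This call lay at the edge of the threshold, and it was lost without any of the libraries other than control replicate 3, at adjusted p of 0.0573 to 0.193. Dct (chr14:118012790-118052244, minus strand), the dopachrome tautomerase, had levels of 7927, 6652 and 6548 CPM in control libraries, against 7347, 5526 and 6053 after DAC, 8255, 6036 and 6832 after SFN and 7456, 5630.4 and 6127 after both drugs. In each replicate number, the groups with DAC were below the groups without it. The log2 fold change of Dct with DAC, averaged over the absence and presence of SFN, was -0.15 (SE 0.043, adjusted p = 0.0555), and it was -0.16 with DAC alone (adjusted p = 0.358) and -0.14 with DAC+SFN (adjusted p = 0.0837), so it was not called.

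Of the melanosome proteins, Pmel was called and Mlana was not, and the difference between them was not tested. Pmel (chr10:128704195-128720238, plus strand), which forms the fibrils on which melanin is laid down, had levels of 5776, 5239.9 and 4791 CPM in control libraries, against 5285, 4609 and 4557 after DAC, 5547, 3319.8 and 4414 after SFN and 5231, 3417 and 3862 after both drugs. The libraries of replicate 2 with SFN and with DAC+SFN were the lowest, and the ranges overlapped with control. Pmel fell by 0.36 with DAC+SFN against control (SE 0.099, adjusted p = 0.0129), with log2 differences of -0.14, -0.62 and -0.31 in replicates 1, 2 and 3. This was the largest fall among the 10 genes, and the call was lost without control replicate 2 (-0.24, adjusted p = 0.0943) or DAC+SFN replicate 2 (-0.31, adjusted p = 0.0625). With SFN alone, its log2 fold change was -0.28 (adjusted p = 0.0785). This value ranged from -0.36 to -0.15 with 1 library left out and from -0.39 to -0.10 with 1 replicate number left out. Averaged over both DAC states, Pmel fell by 0.25 with SFN (SE 0.070, adjusted p = 0.0142), and the value without replicate 2 in all groups was -0.12 (adjusted p = 0.119). Exons of Pmel share 34 bases with Cdk2 and 105 bases (4.58% of its exon length) with Dgka, both on the other strand, and the strand setting of the counting was not stated, so reads in these bases cannot be told apart. Mlana (chr19:29697824-29708634, plus strand), a protein of early melanosomes, had levels of 1182, 1174 and 893 CPM in control libraries, against 1129, 1075 and 932 after DAC, 1352, 1072 and 983 after SFN and 1355, 1041 and 880.1 after both drugs. Its replicates went in different directions in each comparison with control, and its log2 fold changes were -0.04, 0.07 and 0.00 with DAC, SFN and DAC+SFN (adjusted p = 0.880, 0.600 and 0.993).

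The transporters were higher with the combination. Oca2 (chr7:56239760-56536518, plus strand), a melanosomal anion channel and the least abundant of the 10, had levels of 66.7, 47.7 and 45.0 CPM in control libraries, against 77.4, 58.6 and 50.4 after DAC, 66.6, 43.6 and 45.3 after SFN and 81.6, 61.0 and 53.1 after both drugs. In each replicate number, both groups with DAC were above both groups without it. Oca2 rose with DAC averaged over both SFN states by 0.28 on the log2 scale (SE 0.045, adjusted p = 0.00432), with DAC+SFN against control by 0.30 (SE 0.064, adjusted p = 0.00296) and with DAC+SFN against SFN by 0.33 (SE 0.063, adjusted p = 0.0272). With DAC alone its log2 fold change was 0.22 (SE 0.064, unadjusted p = 0.00322, adjusted p = 0.200), higher in 3 of 3 replicates, and SFN alone gave -0.04 (adjusted p = 0.735). The calls for DAC+SFN against control and for the average held in each of 12 fits that left out 1 library. With replicate 1 left out in all groups they were lost (adjusted p = 0.0579 against control and 0.133 for the average), and with replicate 2 left out the average was lost (0.0815). The call against SFN was lost without SFN replicate 1 (adjusted p = 0.142), SFN replicate 2 (0.0675), SFN replicate 3 (0.217), DAC+SFN replicate 1 (0.144) or DAC+SFN replicate 2 (0.0673). Slc45a2 (chr15:11000721-11029233, plus strand), a transporter that keeps the melanosome from acidifying, had levels of 971, 933 and 818 CPM in control libraries, against 1023, 995 and 858 after DAC, 1057, 959 and 917 after SFN and 1179, 1017 and 894 after both drugs. Every treated library was above the control library of its number. Slc45a2 rose by 0.18 with DAC+SFN (SE 0.055, adjusted p = 0.0236), where DAC alone gave 0.08 (adjusted p = 0.670) and SFN alone 0.11 (adjusted p = 0.205). The call was lost without control replicate 1 (0.15, adjusted p = 0.121), control replicate 3 (0.17, adjusted p = 0.0733) or DAC+SFN replicate 1 (0.13, adjusted p = 0.136).

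Mc1r (chr8:123407107-123410744, plus strand), the receptor at the head of the pathway, had levels of 269.9, 279 and 225 CPM in control libraries, against 261, 239 and 226 after DAC, 312, 319 and 249 after SFN and 361, 297 and 249 after both drugs. In each replicate number, both groups with SFN were above both groups without it. Mc1r rose with SFN averaged over both DAC states by 0.24 (SE 0.049, adjusted p = 0.00188), and this call held in each of 12 fits that left out 1 library. It rose by 0.31 in DAC+SFN against DAC (SE 0.070, adjusted p = 0.00937) and by 0.22 in DAC+SFN against control (SE 0.070, adjusted p = 0.0253), while SFN alone gave 0.18 (adjusted p = 0.0932) and DAC alone -0.08 (adjusted p = 0.733). Against control, the call of the combination was lost without control replicate 1 (0.17, adjusted p = 0.158), control replicate 3 (0.21, adjusted p = 0.0707) or DAC+SFN replicate 1 (0.13, adjusted p = 0.183), and against DAC without DAC replicate 1 (adjusted p = 0.0529), DAC replicate 2 (0.0617) or DAC+SFN replicate 1 (0.0704). The annotated exon of Mc1r shares 653 of its 3638 bases (17.9%) with Gm38092 on the other strand, a gene model that the count files do not list.

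**Figure D2:**
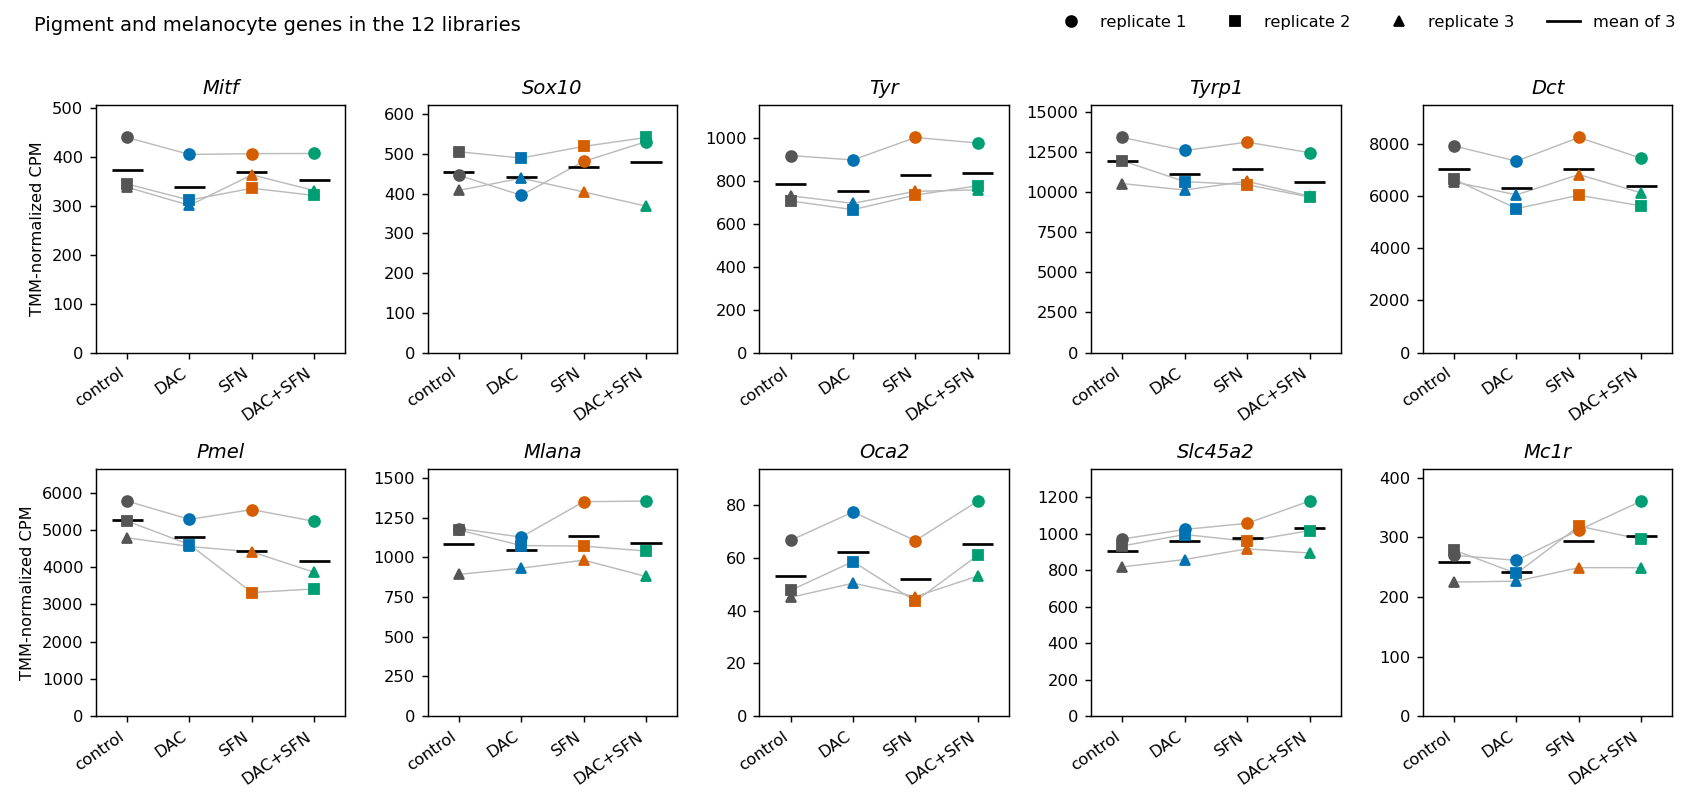
TMM-normalized CPM of the 10 genes in each of the 12 libraries by group, with a marker shape for each replicate number, grey lines joining libraries of the same number and a black bar for the mean of 3. Replicate 1 is the highest in most panels, and the lines of a gene run nearly parallel for Tyr and Oca2.

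Counted over the 10 genes, 0 were called with DAC, where 0.18% of all tested genes were called, and 0 with SFN, where 13.9% were called. At an unadjusted p under 0.05, edgeR gave 3 with DAC (Mitf, Dct and Oca2, beside 10.1% of all genes) and 2 with SFN (Pmel and Mc1r, beside 28.8%), and the DESeq2 Wald test called 0 with DAC and 1 with SFN (Pmel). The combination against control called 5 of 10, of which Oca2, Slc45a2 and Mc1r were higher and Pmel and Tyrp1 lower, beside 31.6% of all genes (17% higher and 14.7% lower). Against DAC the combination called 2 of 10 (Tyr and Mc1r, both higher), beside 16.1% of all genes (9.55% higher), and against SFN 1 of 10 (Oca2), beside 1.61%. None of the 10 changed by more than 2-fold in any comparison, where 2.66% of all genes did so with an adjusted p under 0.05 in the combination against control. The median log2 fold change of the 10 genes was -0.07 with DAC, 0.02 with SFN and 0.04 with DAC+SFN, beside 0.00, 0.00 and 0.01 over all tested genes. All 3 replicates moved the same way in 7 of the 10 genes with DAC, 4 with SFN and 8 with DAC+SFN, beside 41.2%, 49.3% and 54% of all genes. In 0 of 10 did the 3 libraries of the combination and of control not overlap, beside 29.4% of all genes.

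The averaged comparisons use all 12 libraries and share them with the comparisons above. SFN averaged over both DAC states called 3 of 10 (Mc1r and Tyr higher, Pmel lower), beside 29.6% of all genes, and DAC averaged over both SFN states called 1 of 10 (Oca2), beside 5.22%. The interaction, which asks whether the effect of both drugs differs from the sum of their single log2 effects, called 0 of 10 and 0 of all genes in edgeR, and likewise 0 in the DESeq2 Wald test. Its lowest adjusted p among the 10 was 0.970, at an unadjusted p under 0.05 edgeR gave 0 of 10 and 5.87% of all genes, and the intervals of the interaction reached 0.35 on the log2 scale.

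**Figure D3:**
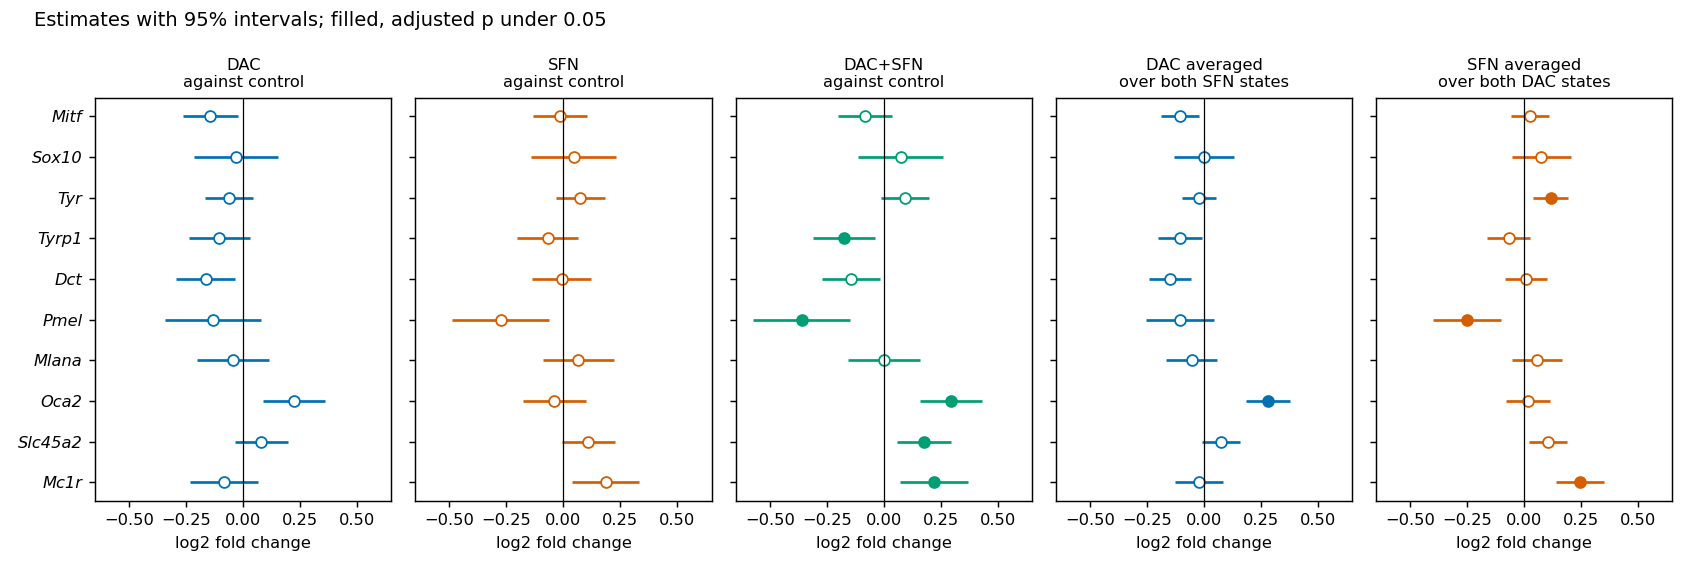
Log2 fold change of each gene with its 95% interval in 5 comparisons, from the fit over all 12 libraries, filled where the adjusted p was under 0.05. Oca2 is filled in both panels that hold DAC+SFN or the DAC average, Mc1r and Tyr are filled in the SFN average, and each estimate lies within 0.36 of 0.

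These genes varied more with the replicate number than with the drugs. All 10 differed between replicate numbers at an adjusted p under 0.05 (edgeR's quasi-likelihood F-test of both replicate terms), from 4.56e-06 for Oca2 to 0.00946 for Sox10, beside 33.9% of all tested genes. Replicate 1 had the highest mean log2 CPM in 9 of the 10 genes and replicate 2 in Sox10, and the level in replicate 1 was 1.14-fold (Sox10) to 1.5-fold (Oca2) that in replicate 3. Of the variation of log2 CPM over the 12 libraries, the replicate number held a median of 76.6% over the 10 genes and the treatment 16.1%, beside 31.2% and 33.8% over all tested genes. The treatment share was highest in Mc1r (39.1%), Pmel (29.5%) and Oca2 (23.2%) and lowest in Mlana (3.94%) and Sox10 (5.23%). By the labels, replicates 1, 2 and 3 hold library numbers 1 to 4, 5 to 8 and 11 to 14, so a culture repeat and a library batch cannot be told apart here. Without the replicate number in the model, 0 of the 10 genes were called by edgeR in each of the 8 comparisons, and at an unadjusted p under 0.05 only Mc1r passed, in DAC+SFN against DAC and in the SFN average, while 1201 genes in all were called in the combination against control, against 3683 with it.

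**Figure D4:**
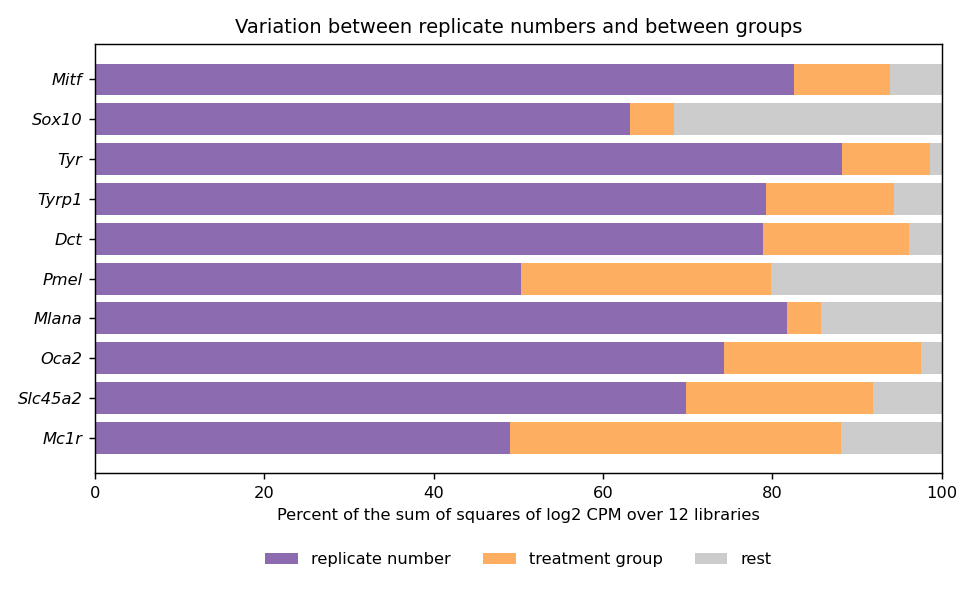
Share of the sum of squares of log2 CPM over the 12 libraries that lay between replicate numbers, between the 4 treatment groups and in the rest, for each gene. The replicate part is the widest in all 10 bars, from 49.0% in Mc1r to 88.2% in Tyr.

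The genes whose profiles over the 12 libraries were most like that of Mitf were Lima1, Dct, Ccdc47, St6gal1 and Plekha5. The measure was the root mean square distance between log2 CPM scaled to mean 0 and SD 1, which was 0.349 for Lima1 and 0.360 for Dct, beside a median of 1.36 over 11637 genes. Tyrp1 ranked 8 and Tyr 9 in likeness to Mitf, and Sox10 ranked 6211. For Tyr the nearest were Npc1 (0.265), Lima1 (0.305), Fam134b (0.338), 9930021J03Rik (0.345) and Tcf12 (0.368), and Mitf ranked 15. The profiles share the libraries and their replicate numbers, and the distances are a description.

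Genes around the pathway were read from lists. With DAC alone, where 0.18% of all tested genes were called, the count was 0 called in each list but the Mitf targets. In that list Cdkn1a, an inhibitor of the cell cycle, rose by 0.60 (SE 0.110, adjusted p = 0.0441). Among 10 tested of 15 factors upstream of Mitf, 1 was higher and 2 lower with DAC+SFN, with a median log2 fold change of -0.08, beside 31.6% of all tested genes called (17% higher and 14.7% lower) and a median of 0.01. A count of 3 of 10 lies near that share. Kitl, the ligand of the receptor KIT, rose by 1.12 (SE 0.180, adjusted p = 0.000352), and Pax3, a factor that activates Mitf, fell by 0.26 (SE 0.052, adjusted p = 0.00181). Creb1, the cyclic AMP response factor, fell by 0.31 (adjusted p = 0.00946), a call lost without control replicate 2 (adjusted p = 0.0728) or DAC+SFN replicate 2 (0.0530). Kit itself had a log2 fold change of -0.38 (adjusted p = 0.0795). Of the relatives of Mitf, Tfeb, a regulator of lysosome genes, fell by 0.39 (adjusted p = 0.0195), lost without control replicate 2 (0.0598), control replicate 3 (0.0595) or DAC+SFN replicate 3 (0.0697), and Tfe3 had a log2 fold change of 0.14 (adjusted p = 0.115).

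In the Mc1r and cyclic AMP list, 24 of 26 genes were tested, and 6 were higher and 2 lower with DAC+SFN, with a median log2 fold change of 0.07. The 8 called of 24 lie near the 31.6% of all genes. The adenylyl cyclases, which make cyclic AMP, went both ways, since Adcy7 rose by 0.62 (adjusted p = 0.000225) and Adcy3 by 0.39 (adjusted p = 0.00136), and Adcy2 fell by 0.71 (adjusted p = 0.00455). Sik2, a kinase that restrains CREB coactivators, rose by 0.48 (adjusted p = 0.000962).

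The other pigment cell genes also went both ways. All 21 were tested, and with SFN 4 were higher and 8 lower, where 13.9% of all genes were called, and with DAC+SFN 8 were higher and 7 lower, where 31.6% were called, with a median log2 fold change of 0.05 for the combination. Slc7a11, the cystine transporter that supplies pheomelanin synthesis and a known target of the antioxidant response, rose by 1.32 (SE 0.158, adjusted p = 3.84e-05), and Cited1, a coactivator found in melanocytes, rose by 0.82 (SE 0.120, adjusted p = 0.000171). Bace2, a protease that cleaves PMEL, fell by 0.77 (SE 0.070, adjusted p = 3.73e-06), and Slc24a5, a cation exchanger of melanocytes, fell by 0.32 (SE 0.054, adjusted p = 0.000481). These 4 changes were larger than the change of any of the 10 genes, apart from that of Slc24a5.

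Among reported Mitf targets outside pigment synthesis, 12 of 16 were tested, and 3 were higher and 3 lower with DAC+SFN (median log2 fold change 0.07), beside 31.6% of all genes called. Cdkn1a rose by 1.36 (adjusted p = 1.91e-06) and Bcl2, which protects from apoptosis, by 0.43 (adjusted p = 0.00169), while Cdk2, a cell cycle kinase, fell by 0.50 (adjusted p = 3.4e-05) and Met, a receptor kinase, by 0.41 (adjusted p = 0.000512). Among genes of undifferentiated melanoma, 6 of 14 were tested, and 3 were higher and 1 lower (median 0.25), beside the same 31.6%. The receptor kinase Axl rose by 0.88 (adjusted p = 0.000608), the intermediate filament gene Nes by 0.50 (adjusted p = 0.00125) and Jun by 0.71 (adjusted p = 0.00638), and Sox9 fell by 0.41 (adjusted p = 0.0108). The call of Jun was lost without control replicate 2 (0.0571) or DAC+SFN replicate 1 (0.0525) and in the robust fit (0.0625), and that of Sox9 without control replicate 1 (0.0507) or DAC+SFN replicate 1 (0.0502). Of the 4 fibroblast markers tested, 1 was called with DAC+SFN, and their median log2 fold change was -0.10. Pdgfra fell by 0.73 (adjusted p = 0.0249), a call lost without control replicate 1 (0.170) or DAC+SFN replicate 1 (0.122), in the DESeq2 Wald test (0.0605) and with only the groups compared (0.0772). Col1a1, Col1a2 and Pdgfrb had log2 fold changes of 0.16, -0.14 and -0.06 with DAC+SFN (adjusted p = 0.446, 0.689 and 0.775), and Col1a1 passed at 0.43 without DAC+SFN replicate 3 (adjusted p = 0.0037). With SFN alone, Col1a2 had a log2 fold change of -0.77 (adjusted p = 0.0525), which passed under 7 of the 10 alternatives that left out no single replicate, at adjusted p of 0.0128 with no filter to 0.0482 with DESeq2 size factors. Of the other fibroblast markers with SFN, Pdgfra fell by 0.84 (adjusted p = 0.024), and Col1a1 and Pdgfrb had log2 fold changes of -0.20 and -0.03 (adjusted p = 0.417 and 0.911). The call of Pdgfra with SFN was lost without control replicate 1 (adjusted p = 0.155) or control replicate 2 (0.0546). It was also lost without SFN replicate 1 (0.0974), SFN replicate 2 (0.0958) or SFN replicate 3 (0.0596). The immune cell marker Cd68 rose by 1.55 with DAC+SFN (SE 0.171, adjusted p = 1.98e-05). The part of these markers in the values of the pigment genes was not tested.

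**Figure D5:**
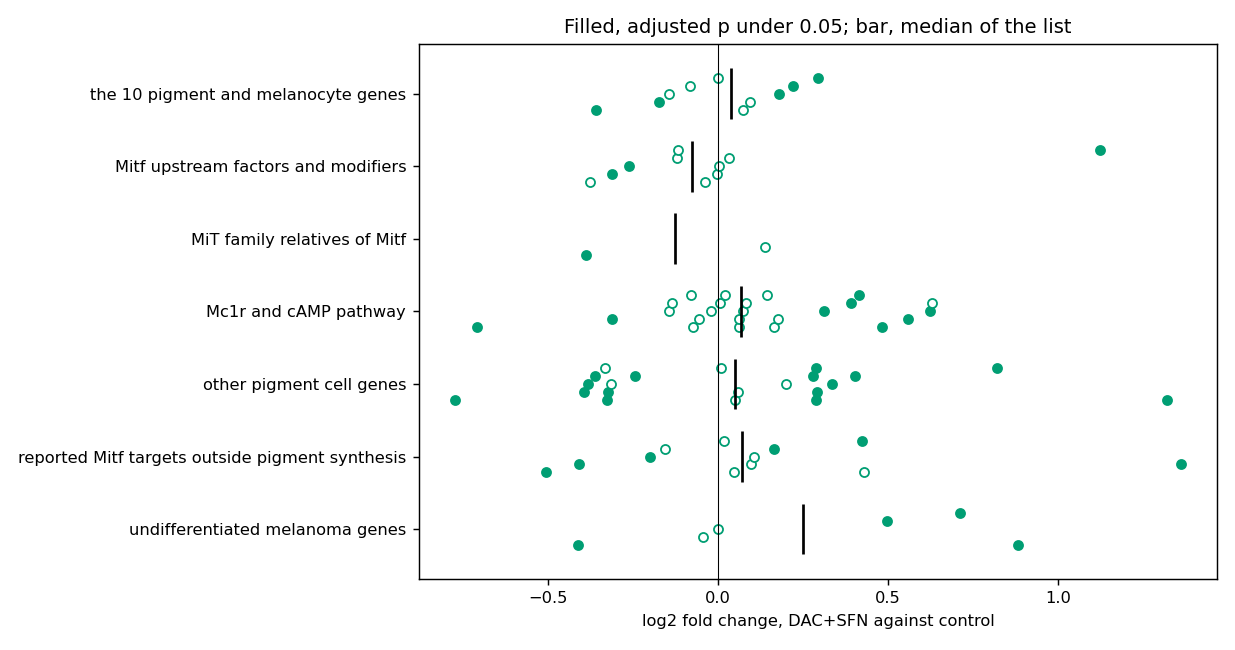
Log2 fold change of DAC+SFN against control for the 10 genes and for 6 lists of related genes, with 1 point per tested gene, filled where the adjusted p was under 0.05, and a bar at the median. The 10 genes lie between -0.36 and 0.30, and each list with more than 2 tested genes reaches beyond 0.3 in at least 1 direction.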

How the data were processed

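RNA from 12 cultures of B16F10 cells was sequenced by the study with a stranded polyA kit as single-end reads. Per the study's methods and the processing notes of the labels, reads were checked with FastQC 0.11.7, trimmed with Trimmomatic 0.38, aligned to mm10 with TopHat2 2.1.1 and counted with HTSeq in Blast2GO, and uniquely aligned reads were kept. The gene annotation and strand setting of the counting were not given in the sources used here. The authors deposited 1 file of raw counts per sample, as whole-number counts per gene symbol with no normalization. Total counts per library were 15880957 to 27291436, and at these depths each of the 10 genes had at least 877 counts, so counting error is small beside the spread between replicates.

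Groups and replicate numbers were taken from the labels. The replicates are named as 3 independent biological repeats in the study's methods. The p-values of the main fit measure the spread left between these samples once the block has removed the differences between replicate numbers. Samples of the same number deviated together from their group means (mean correlation 0.544 over 18 pairs, lowest 0.270), so the numbers pair the samples. Between different numbers the mean was -0.267, which is no separate evidence, since deviations within a group cancel by construction.

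The 11638 genes that reached 1 CPM in 3 or more libraries were scaled by TMM and tested with glmQLFTest after the legacy glmQLFit in edgeR 4.0.16 (R 4.3.3), two-sided, with all 12 libraries in 1 model and the replicate number as a block, after the batch correction in the study's methods. A call was an adjusted p under 0.05 after Benjamini-Hochberg adjustment over all tested genes. SE was taken from the estimate and its F statistic. Log2 fold changes carry a prior count of 0.125 and log2 CPM values per library a prior count of 2. Exon lengths and positions came from GENCODE M21 and promoters from RefSeq on GRCm38.p6. The fit was tested on simulated data.

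The alternatives were no replicate block, DESeq2 size factors, scaling by total counts, the DESeq2 1.42.0 Wald test, no filter, at least 10 counts in every library, the version 4 fit, a robust fit, a prior count of 2, only the groups compared and each library left out. Leaving out each replicate number in all groups was added after the data were seen. The text names the 10 genes, from each list the 4 genes with the smallest p against control and those called with a fold change above 2, the 5 genes most like Mitf and Tyr, and genes overlapping a member. The 10 genes and the lists were chosen with earlier results of these data known. The other assays of the study were not analysed here. The result of 1 marker gene is not reported here.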

Additional observations from a re-analysis of the deposited data

How the results depend on the processing

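The count of the 10 genes called moved most with the replicate block. Without the block, the count was 0 in the combination against control, against DAC and against SFN, and 0 in both averages. All genes called also fell, to 1201, 20 and 0 in these 3 comparisons in place of 3683, 1879 and 187. In the SFN and DAC averages they fell to 1052 and 1 in place of 3443 and 607. The estimates kept their direction, the list gene Col1a1 aside (Pmel -0.34, Oca2 0.30 and Mc1r 0.23 in the combination against control, adjusted p = 0.245, 0.409 and 0.296). Of the list genes named, 22 were called in the combination against control, and 16 of these calls were lost without the block, Axl (0.210), Bace2 (0.131), Cited1 (0.161), Kitl (0.0560) and Pax3 (0.0690) among them, as were all 19 of those with SFN. With only the groups compared in the fit, 3 were called with DAC (Mitf, Dct and Oca2, where 663 of all genes were called in place of 21), 1 with SFN (Mc1r, 1914 of all genes in place of 1619), 2 in the combination against control (2608 in place of 3683) and 0 against DAC (748 in place of 1879). The DESeq2 Wald test and the fit with no filter each called 1 with SFN (Pmel) and 2 in the DAC average, where all genes called were 749 and 938 in place of 607. With no filter, both calls of Tyr were lost (adjusted p = 0.0678 in the SFN average and 0.119 against DAC), and Pmel was called against DAC (0.0165). The robust fit called 2 in the DAC average (628 of all genes). Scaling by total counts and at least 10 counts in every library each called 1 against DAC (1886 and 1853 of all genes in place of 1879). Tyrp1 in the combination was also not called with total counts (adjusted p = 0.0516) or the version 4 fit (0.0843), and Dct was called there by the DESeq2 Wald test (0.0319) and with no filter (0.0255). The cause of these shifts was not tested. With DESeq2 size factors, the DESeq2 Wald test, no filter, at least 10 counts and only the groups compared, Mlana in the combination turned to -0.0038, -0.0038, -0.022, -0.0033 and -0.0064, and without the block Col1a1 there turned to -0.15.

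With 1 library or 1 replicate number left out, the calls among the 10 ranged from 0 to 0 with DAC, 0 to 1 with SFN, 1 to 4 in the combination against control, 0 to 2 against DAC, 0 to 1 against SFN, 0 to 0 in the interaction, 1 to 4 in the SFN average and 0 to 2 in the DAC average. All genes called ranged in these fits from 0 to 101 with DAC, 429 to 2105 with SFN, 1471 to 4199 in the combination against control, 245 to 2402 against DAC, 0 to 703 against SFN, 0 to 0 in the interaction, 1547 to 4140 in the SFN average and 13 to 1365 in the DAC average. Directions that turned in such fits belonged to values that were not called. With 1 library left out, these ranged for SFN over -0.070 to 0.033 in Mitf, -0.046 to 0.049 in Dct, -0.083 to 0.020 in Oca2, -0.18 to 0.080 in Pdgfrb and -0.0088 to 0.056 in Tfe3, for DAC over -0.15 to 0.073 in Sox10 and -0.092 to 0.035 in Mlana, and for the combination over -0.031 to 0.18 in Sox10, -0.082 to 0.079 in Mlana, -0.0065 to 0.43 in Col1a1, -0.39 to 0.13 in Col1a2 and -0.20 to 0.031 in Pdgfrb. Without replicate 1 in all groups, values turned to 0.034 (Mitf), 0.023 (Pdgfrb) and -0.013 (Tfe3) with SFN, 0.033 (Sox10) with DAC, and -0.020 (Sox10), -0.099 (Mlana) and 0.060 (Pdgfrb) in the combination. Without replicate 2 they turned to 0.053 (Dct) with SFN, 0.0022 (Mlana) with DAC and -0.0087 (Col1a1) in the combination, and without replicate 3 to 0.11 (Pdgfrb) with SFN, and 0.27 (Col1a2) and 0.016 (Pdgfrb) in the combination. Some list calls in the combination held with each single library left out but were lost without replicate 1 in all groups. These were Pax3 (adjusted p = 0.0658), Adcy2 (0.0643), Adcy3 (0.0609), Bcl2 (0.0705) and Nes (0.0510). Standard errors of the 10 genes against control were 0.050 to 0.099 on the log2 scale, which at 3 replicates limits how small a difference can be called.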
